A study of Mus musculus with 3 samples.

Results

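The chains of the interferon receptors and the kinases and transcription factors that carry their signal were described in mouse macrophages by 9 genes. These were the receptor genes Ifnar1, Ifnar2, Ifngr1 and Ifngr2, the Janus kinase genes Jak1, Jak2 and Tyk2, and the transcription factor genes Stat2 and Stat3. They were chosen by symbol, and each symbol matched 1 gene identifier among 55536 annotated genes. The cells were bone-marrow-derived macrophages, which are primary cells grown from marrow, of the inbred mouse strain C57BL/6J. They had been exposed to Lipid A at 100 ng/ml for 12 h, kept without it for 12 h and given 100 ng/ml again for 20 min. Lipid A, the lipid anchor of bacterial lipopolysaccharide, is the ligand of the receptor TLR4. RNA of the cytosolic fraction was depleted of ribosomal RNA and sequenced as total RNA. There was 1 group of 3 libraries, labelled as biological replicates 1, 2 and 3 but with a single donor identifier, and the labels do not say whether it stands for 1 animal or for the strain. The sex and age of the animals were not recorded. No untreated, once-treated or nuclear library was analysed here, so every value is a level and not a response.

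Type I interferons bind a receptor made of the chains IFNAR1 and IFNAR2, which hold the kinases TYK2 and JAK1 at their inner ends. Interferon gamma binds IFNGR1 and IFNGR2, which hold JAK1 and JAK2. The kinases phosphorylate the receptor chains and the STAT proteins docked there. STAT2 joins IRF9 in the complex ISGF3, which binds the interferon-stimulated response element in front of antiviral genes. STAT3 carries signals of interleukin 6 and interleukin 10, and in macrophages it is known as the factor through which interleukin 10 restrains inflammatory genes. Macrophages make interferon beta after TLR4 is activated and respond to it themselves.

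All 9 genes were present in every library, and Stat2 was the most abundant. Levels are given as TPM, which is abundance per transcript length with a fixed total in each library, from the first of the 2 deposited quantifications. Each of the 9 reached 1 TPM in every library, against 41.3% of the 22028 protein-coding genes. Together they held 0.246%, 0.197% and 0.221% of the expected counts on annotated genes in replicates 1, 2 and 3, which totalled 32055937, 43616634 and 47864978. The lowest expected count of any of the 9 in any library was 2848, for Ifngr1 in replicate 1.

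The markers of macrophages were present and those of most other cell types were near 0. Of 10 macrophage markers, 10 reached 1 TPM in every library, with sums of 5487, 4705 and 4901 TPM in replicates 1, 2 and 3. Neutrophil markers did so in 3 of 8 genes, with Ly6g at 0 counts and sums between 10.6 and 18.5 TPM. B-cell markers did so in 1 of 6 genes (sums 1.5 to 3.07 TPM), T and NK cell markers in 0 of 6 (0.07 to 0.27 TPM) and dendritic cell markers in 0 of 6 (0.7 to 1.23 TPM, Cd209a at 0). Fibroblast and endothelial markers did so in 1 of 6, and their sum was 10.8, 3.86 and 3.64 TPM in replicates 1, 2 and 3, most of it from Kdr. The part of these other cell types in the levels below was not tested. In bulk RNA, fewer cells of a type and less RNA per cell cannot be told apart.

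**Figure D1:**
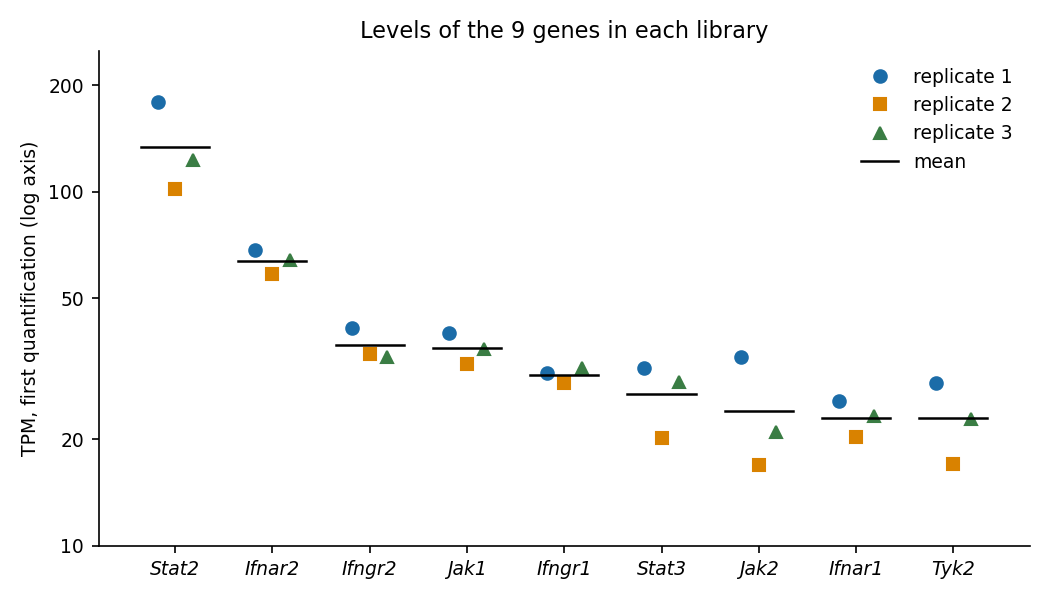
TPM of the 9 genes (log axis) in each of the 3 libraries, with the mean as a line, in order of mean level. Stat2 lies between 102 and 179 TPM, Ifnar2 between 58.7 and 68.5 TPM, and the other 7 genes between 16.9 and 41.3 TPM.

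The 2 genes of the type I receptor differed in total level in every library, with Ifnar2, the gene of the ligand-binding chain, above Ifnar1. The order of their full-length transcripts was the reverse and is given below. Ifnar2 (ENSMUSG00000022971.18; chromosome 16, 91372783 to 91405589, plus strand), whose product binds interferon with high affinity, had 68.5, 58.7 and 63.9 TPM in replicates 1, 2 and 3. Ifnar1 (ENSMUSG00000022967.13; chromosome 16, 91485238 to 91507441, plus strand), which completes the receptor, had 25.6, 20.3 and 23.2 TPM. The ranges of the 2 genes did not overlap. The log2 ratio of Ifnar1 to Ifnar2 was -1.47 ± 0.06 (SD, n = 3), a ratio of 0.361, and it was the pair whose ratio varied least of the 5 compared. An exact two-sided sign-flip test over 3 libraries cannot go below 0.25, so no ratio could pass it, and each of the 5 pairs gave p = 0.25 (adjusted p = 0.25).

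Most of the abundance of Ifnar2 was assigned to a short transcript. The share of Ifnar2-203 was 72.1%, 70.7% and 65.0% of the gene in replicates 1, 2 and 3, and that of the full-length Ifnar2-201 was 20.7%, 23.1% and 26.4%. Ifnar2-203 was lowest and Ifnar2-201 highest in replicate 3. The coding part of Ifnar2-203 holds 248 codons and that of Ifnar2-201 holds 513. In the mouse, the full-length form is known as the signalling receptor chain, and a short form that lacks the membrane span is known as a soluble receptor that can bind interferon in the fluid around cells. The 2 forms share 709 coding bases and then part at an exon end. Ifnar2-201 goes on in the next exon, after an intron of 5304 bases, whereas Ifnar2-203 reads on past the exon end and stops after 38 more coding bases, stop codon included. The stretches around this point are shown because they are where the 2 forms separate. They are from GENCODE M21 on mm10, plus strand, with the last 45 shared bases in lower case and the bases of each form alone in capitals. The stretch of Ifnar2-201 is spliced (chr16:91393869-91399262) and that of Ifnar2-203 is unbroken in the genome (chr16:91393869-91393951).
Ifnar2-201: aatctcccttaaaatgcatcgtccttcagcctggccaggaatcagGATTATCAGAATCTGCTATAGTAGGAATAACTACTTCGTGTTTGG
Ifnar2-203: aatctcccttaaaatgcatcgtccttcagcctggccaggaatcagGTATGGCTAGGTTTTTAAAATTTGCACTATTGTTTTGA
Translated by a script and searched after residue 40 only, Ifnar2-201 had its highest mean hydropathy over 19 residues, 2.40 on the Kyte-Doolittle scale, from residue 243, which lies after the split. In Ifnar2-203, searched likewise, the highest value was 1.16.

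The share of Ifnar2-203 rests on dividing by length. Its transcript is 1099 nt long and that of Ifnar2-201 is 3047 nt. In expected counts the 2 forms were close, with 2142, 2912 and 3027 for Ifnar2-203 and 1996, 3073 and 3959 for Ifnar2-201 in replicates 1, 2 and 3. Per length, Ifnar2-203 stood at 44.2 ± 4.56 TPM and Ifnar2-201 at 14.9 ± 1.75 TPM (SD, n = 3). The second quantification gave Ifnar2-203 shares of 75.2%, 75.6% and 69.2%, and 18.5%, 19.2% and 23.3% to Ifnar2-201. Both quantifications put the short form first in every library. Ifnar2-203 ends inside an intron of Ifnar2-201. The part of unspliced RNA in its share was not tested. Of the other annotated forms, Ifnar2-204 had 4.78% ± 0.849 and Ifnar2-202, which parts from Ifnar2-201 after the same 709 bases, 2.17% ± 0.575 (SD, n = 3).

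Ifnar1 was mostly in 1 coding form. Ifnar1-201 had 81.8%, 87.7% and 85.5% of the gene in replicates 1, 2 and 3, and Ifnar1-202, which has the same coding parts, had 5.18% ± 0.297 (SD, n = 3). Transcripts annotated as targets of nonsense-mediated decay, the pathway that removes messages with early stop codons, took 7.06% ± 1.19 of Ifnar1. The second quantification gave 85.8% ± 4.21 to Ifnar1-201, within the spread between libraries of the first. Unlike the gene totals, the full-length Ifnar2-201 was below Ifnar1-201 in every library. In the first quantification Ifnar2-201 had 14.2, 13.6 and 16.9 TPM in replicates 1, 2 and 3. Ifnar1-201 had 21, 17.8 and 19.8 TPM. In the second, Ifnar2-201 had 6.37, 6.54 and 6.71 TPM, and Ifnar1-201 had 9.88, 9.47 and 8.47 TPM.

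In gene totals, the chains of the interferon gamma receptor were closer to each other than those of the type I receptor. Ifngr2 (ENSMUSG00000022965.8; chromosome 16, 91547072 to 91565623, plus strand), the chain that brings JAK2, had 41.3, 34.8 and 34.1 TPM in replicates 1, 2 and 3. Ifngr1 (ENSMUSG00000020009.13; chromosome 10, 19591949 to 19610229, plus strand), the chain that binds the ligand, had 30.7, 28.8 and 31.8 TPM. Ifngr1 was below Ifngr2 in every library, most in replicate 1 and least in replicate 3. The log2 ratio of Ifngr1 to Ifngr2 was -0.27 ± 0.16 (SD, n = 3), a ratio of 0.83. Its size depended on the quantification. In the second the mean log2 ratio was -0.67, against -1.58 for Ifnar1 to Ifnar2. The SD of Ifngr1 on the log2(TPM + 1) scale, 0.07, was the smallest of the 9 and larger than that of 20.1% of the genes tested below. With TMM scaling, which removes a common shift between libraries, it was 0.11, above those of Jak1 (0.02), Ifnar2 (0.03), Ifnar1 (0.05) and Ifngr2 (0.07).

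The isoform shares of Ifngr2 depended on the quantification. Its coding form Ifngr2-201 had 67.2%, 64.5% and 78.2% in the second quantification, against 93.7%, 94.0% and 98.9% in the first. The remainder lay on Ifngr2-202, a 534 nt transcript annotated as a target of nonsense-mediated decay. It had 32%, 35.3% and 21.4% in the second quantification, against 6.28%, 6.01% and 1.13% in the first. Its expected counts in the first were only 39, 52 and 10. Ifngr1-201 was the single leading form of Ifngr1, with 95.2% ± 1.9 in the second quantification and 96.9% ± 0.672 in the first (SD, n = 3).

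Of these receptor genes, 3 lie side by side on chromosome 16. Ifnar2, Il10rb, Ifnar1 and Ifngr2 follow each other on the plus strand within 193 kb. Il10rb, which lies between the 2 type I chains and encodes the shared chain of the interleukin 10 and interferon lambda receptors, stood at 108 ± 9.49 TPM. It was above its neighbours Ifnar2 (63.7 ± 4.89 TPM), Ifngr2 (36.8 ± 3.96 TPM) and Ifnar1 (23 ± 2.69 TPM; SD, n = 3 each). Genes that stand together thus differed in level by more than their spread between libraries.

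Among the kinases Jak1 was the highest and the least variable. Jak1 (ENSMUSG00000028530.14; chromosome 4, 101152367 to 101265282, minus strand), which serves both interferon receptors and many cytokine receptors, had 40, 32.6 and 36 TPM in replicates 1, 2 and 3. Jak2 (ENSMUSG00000024789.13; chromosome 19, 29251828 to 29313080, plus strand), the kinase of IFNGR2 and of growth factor receptors such as that for GM-CSF, had 34.1, 16.9 and 21 TPM. Tyk2 (ENSMUSG00000032175.11; chromosome 9, 21104068 to 21131243, minus strand), the kinase of IFNAR1, had 28.8, 17.0 and 22.8 TPM. Replicate 1 was highest and replicate 2 lowest for all 3 kinases. Jak1 was above its partners in every library, although its range overlapped that of Jak2. The log2 ratio of Jak1 to Tyk2 was 0.69 ± 0.23 and that of Jak1 to Jak2 was 0.65 ± 0.37 (SD, n = 3 each). Both ratios were smallest in replicate 1, where that of Jak1 to Jak2 was 0.23, and largest in replicate 2, where both were 0.94.

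**Figure D2:**
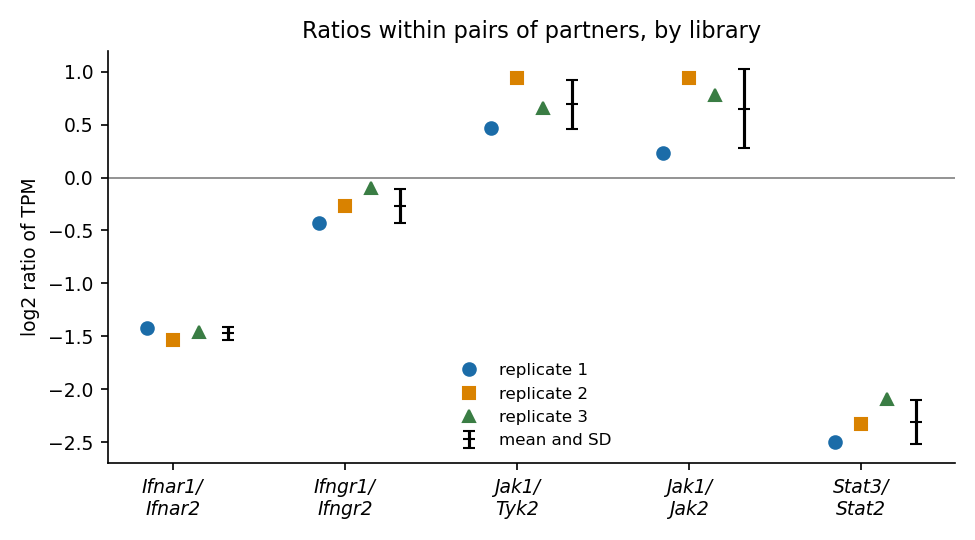
Log2 ratio of TPM within 5 pairs of partners, for each of the 3 libraries, with mean and SD over libraries. Each ratio keeps its sign in 3 of 3 libraries, and the ratio of Ifnar1 to Ifnar2 has the smallest SD (0.06) and that of Jak1 to Jak2 the largest (0.37).

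Jak2 had the widest spread of the 9 genes. Its highest library was 2.02 times its lowest, and its SD of 0.50 on the log2(TPM + 1) scale was larger than that of 96.7% of the genes tested. The genes with the most similar levels over the 3 libraries, by Euclidean distance on that scale among 9091 coding genes of at least 1 TPM, were Slfn1 (36.0, 17.9 and 20.4 TPM; distance 0.115), Acsl1 (distance 0.167) and Rap2c (distance 0.197). For Ifngr1, which had the smallest SD without TMM scaling, they included Sec61a1 (30.7, 28.6 and 31.2 TPM; distance 0.0268) and Sec14l1 (distance 0.0506). With 3 libraries this measure is dominated by level.

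The transcripts of Jak2 differ outside the coding part. Jak2-202 and Jak2-204 have the same coding parts of 3396 nt, in transcripts of 5030 and 3995 nt. Jak2-202 had 57.6%, 48.0% and 57.2% of the gene in the second quantification, against 85.2%, 72.3% and 76.8% in the first. Jak2-204 took the rest in both. Which of the 2 leads in replicate 2 therefore depends on the quantification, whereas the share of coding transcripts was 100% in each. Jak1-201 (92.2% ± 2.54 in the second quantification and 95.7% ± 1.14 in the first) and Tyk2-203 (93.9% ± 3.46 and 94.1% ± 2.86; SD, n = 3 each) led their genes in both.

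Stat2 was the highest of the 9 genes in every library. Stat2 (ENSMUSG00000040033.16; chromosome 10, 128270559 to 128292849, plus strand), the subunit that gives ISGF3 its main activation domain, had 179, 102 and 123 TPM in replicates 1, 2 and 3. Its mean of 134 ± 40 TPM (SD, n = 3) was above those of 96.6% of the 9092 coding genes that reached 1 TPM in every library. Stat3 (ENSMUSG00000004040.16; chromosome 11, 100885098 to 100939540, minus strand) had 31.7, 20.1 and 28.9 TPM. Replicate 1 was highest and replicate 2 lowest for both, and their ranges did not overlap. The log2 ratio of Stat3 to Stat2 was -2.31 ± 0.21 (SD, n = 3), a ratio of 0.202. The spans of Stat3 and of Stat5a, on the opposite strand, overlap by 72 nt at their ends. Stat5a stood at 4.55 ± 0.773 TPM (SD, n = 3), and whether counting used strand is not given in the sources used here.

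Stat2 has a promoter that holds the core of the element that ISGF3 binds. The 250 bases before its RefSeq start (GRCm38.p6, chr10:128270248-128270497, plus strand) are shown because Stat2 was the highest of the 9 genes and the only one of them with this core. The capitals mark the match, 222 bases before the start, which reads GAAANNGAAA on the other strand.
Stat2 promoter: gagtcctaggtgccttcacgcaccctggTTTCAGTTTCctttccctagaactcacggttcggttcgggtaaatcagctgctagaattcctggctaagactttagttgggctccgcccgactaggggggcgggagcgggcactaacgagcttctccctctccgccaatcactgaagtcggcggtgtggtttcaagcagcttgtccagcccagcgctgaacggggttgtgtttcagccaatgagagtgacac
All 9 genes matched the RefSeq promoter table, whose windows run from 250 bases before to 50 after each start. The response element core, GAAANNGAAA on either strand, was in 1 of 9 windows and in 3.44% of 32851 promoters. The core of the gamma-activated site, TTCNNNGAA, was in 2 of 9 windows and in 8.3% of promoters. These 2 were Ifnar2 (TTCCTGGAA, 214 bases before the start) and Ifnar1 (TTCACGGAA, 5 bases before the start). None of the 9 windows held both cores, and no binding was measured here.

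Stat2 was also the member with the largest share of transcripts that keep an intron. Its coding form Stat2-201 had 79.0%, 83.4% and 84.7% of the gene in replicates 1, 2 and 3. Stat2-206, a 736 nt transcript at the 5′ end of the gene with a retained intron, had 16.3%, 15.3% and 12.9%. It was highest in replicate 1. The second quantification gave Stat2-206 19.2%, 18.7% and 14.5%. In expected counts Stat2-206 was small, with 735, 640 and 678 against 29441, 28380 and 36047 for Stat2-201, because it is short.

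Stat3 was mostly in its full-length form. STAT3 alpha ends in an activation domain, and STAT3 beta replaces that end with a few residues of its own. Stat3-203, the alpha form, had 77.2%, 83.6% and 86.5% of the gene in replicates 1, 2 and 3 in the second quantification, against 87.6%, 89.4% and 91.5% in the first. Stat3-214, a noncoding processed transcript, had 9.4%, 4% and 4.76% in the second quantification and 0 in the first. Stat3-202, the beta form, lacks 50 bases of the coding part of Stat3-203 and had 4.89%, 5.01% and 3.52% in the first. The beta form was lowest in replicate 3. In the second quantification its share was 1.26%, 1.41% and 1.07%, so its size depends on the quantification while its place below the alpha form does not. Stat3-201, which lacks 1 codon, had 6.88% ± 2.64 in the second quantification and 4.10% ± 0.955 in the first (SD, n = 3). The spliced stretches below (GENCODE M21 on mm10, minus strand, chr11:100889496-100893075 and chr11:100889516-100893075) show the alternative 3′ splice site. The capitals mark the 50 bases that only the alpha form has, and the beta form ends here with its stop codon.
Stat3-203: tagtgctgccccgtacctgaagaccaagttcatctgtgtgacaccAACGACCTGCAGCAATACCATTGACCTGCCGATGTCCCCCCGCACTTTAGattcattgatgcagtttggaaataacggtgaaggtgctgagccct
Stat3-202: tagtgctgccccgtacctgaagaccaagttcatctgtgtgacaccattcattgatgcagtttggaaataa

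**Figure D3:**
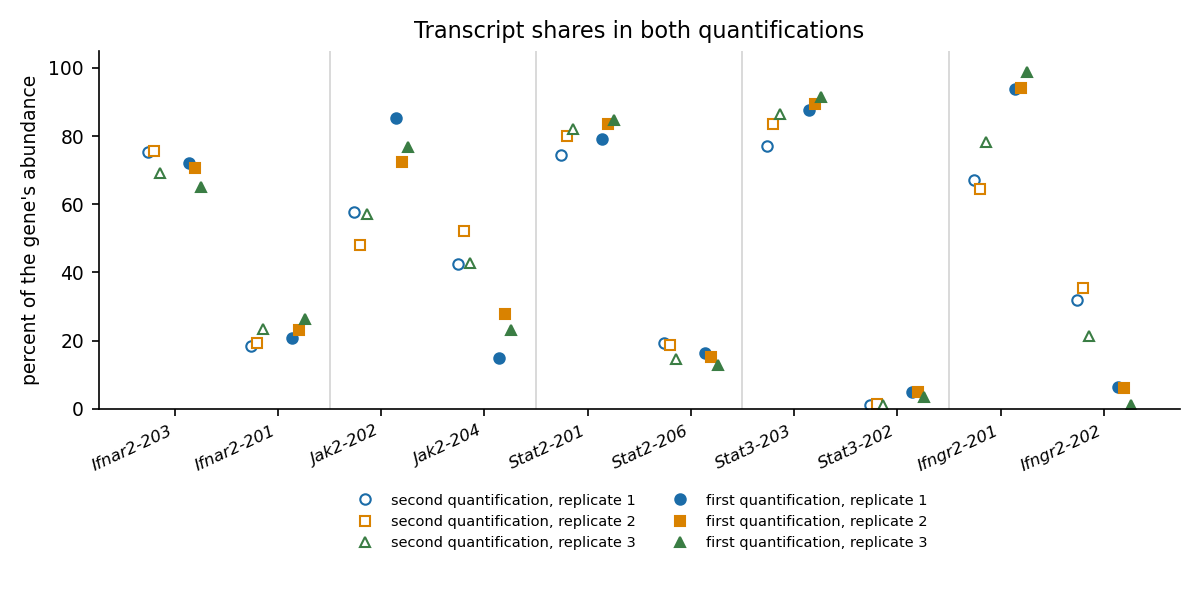
Percent of the gene's abundance held by 10 transcripts of 5 of the genes, in the second (open, left) and first (filled, right) quantification, by library. Ifnar2-203 lies above Ifnar2-201 in both, whereas the shares of Jak2 and Ifngr2 transcripts differ between quantifications by more than between libraries.

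Beyond Stat2 and Ifnar2, most neighbours in the order of levels could not be told apart. Of the 8 neighbouring pairs, 3 differed in the same direction in every library by more than the SD of the difference, on the log2(TPM + 1) scale. Stat2 was above Ifnar2 by 1.03 ± 0.31, Ifnar2 above Ifngr2 by 0.78 ± 0.09, and Jak1 above Ifngr1 by 0.24 ± 0.11 (SD, n = 3 each; exact sign-flip p = 0.25 for each). Ifngr2 and Jak1 did not differ beyond their spread (0.02 ± 0.09). Nor did Ifngr1 and Stat3 (0.20 ± 0.27), Stat3 and Jak2 (0.19 ± 0.27), Jak2 and Ifnar1 (0.01 ± 0.35), or Ifnar1 and Tyk2 (0.03 ± 0.20; SD, n = 3 each). In replicate 1 Stat3, Jak2 and Tyk2 were each above the gene ranked before them, and without that library 6 of the 8 pairs differed by this rule. In the second quantification 5 did.

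Each of the 9 genes differed between libraries by more than counting noise, which most genes of the table did. In edgeR's likelihood ratio test with dispersion 0, 9 of 9 had an adjusted p under 0.05, against 71.1% of 12372 genes. The adjusted p was 3.20e-299 for Jak2, 2.03e-103 for Stat3 and 1.39e-96 for Tyk2. It was 0.00011 for Ifngr1 and 5.24e-05 for Ifngr2. At this depth small differences pass, and some calls rest on 1 library. Without replicate 1 the adjusted p of the same edgeR test was 0.154 for Ifngr1 and 0.13 for Ifngr2. Without replicate 2 it was 0.644 for Stat3, 0.116 for Jak1 and 0.934 for Ifnar1, and without replicate 3 it was 0.485 for Ifnar2. Jak1 was also lost (adjusted p = 0.89) when genes with low counts were kept in. Stat2, Jak2 and Tyk2 kept their calls under all of these.

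Jak2, Stat2, Tyk2 and Stat3 spread more between libraries than the receptor genes and Jak1. On the log2(TPM + 1) scale they had SDs of 0.50, 0.41, 0.36 and 0.33 in that order, above those of at least 90.1% of genes tested. The others lay between 0.07 for Ifngr1 and 0.16 for Ifnar1. The median over the 9 was 0.16, against 0.14 over all 12372 genes, with 7 of 9 above that median. With TMM scaling the medians were 0.11 and 0.13, with 4 of 9 above, so the side on which the 9 genes fall depends on the scaling. In the second quantification the medians were 0.27 and 0.15, with a pseudocount of 0.1 they were 0.17 and 0.19, and without replicate 2 they were 0.10 and 0.11. The same 4 genes were the ones above the median with TMM scaling, with SDs of 0.37 for Jak2, 0.28 for Stat2, 0.24 for Tyk2 and 0.23 for Stat3. In TMM-scaled TPM, 1 of 9 genes, Jak2, was highest in replicate 1 and at least 1.5-fold above its lowest library (1.68-fold), against 9.51% of genes tested. Stat2, at 1.47-fold, was just under that limit.

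**Figure D4:**
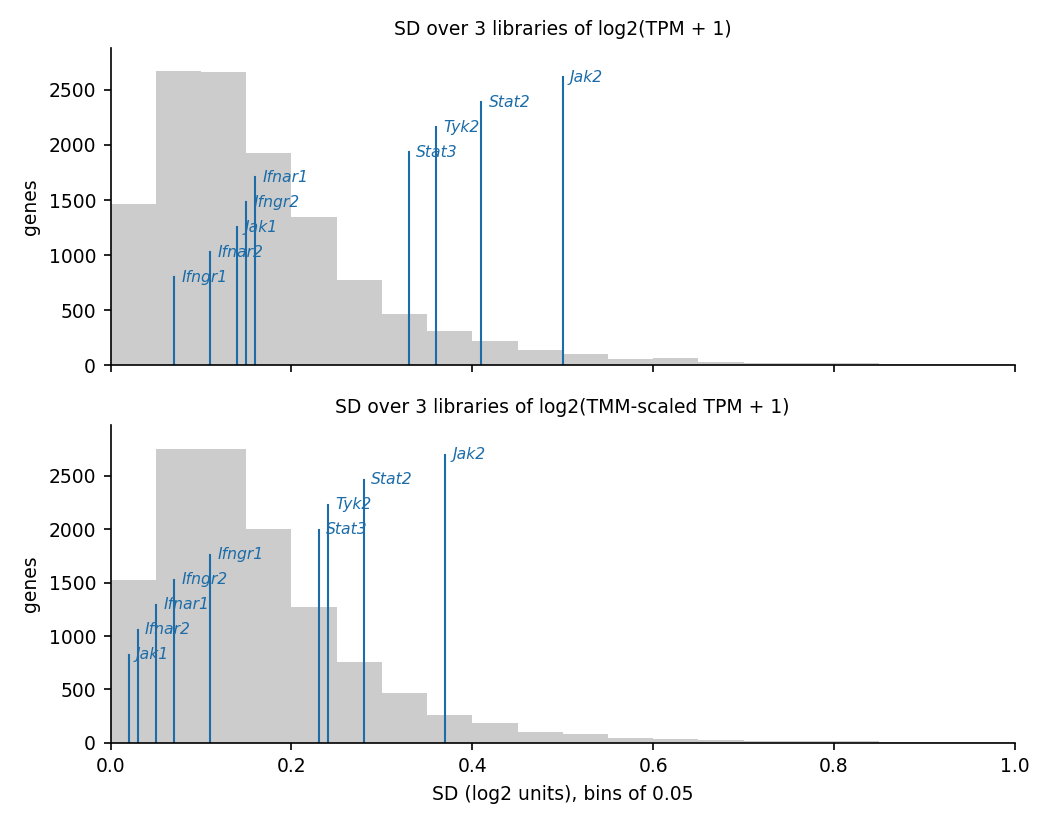
Number of genes tested (grey, bins of 0.05) by the SD over 3 libraries of log2 level, for TPM and for TMM-scaled TPM, with the 9 genes as lines. Genes with an SD above 1 (37 for TPM and 31 for TMM-scaled TPM) are not drawn, and Jak2, Stat2, Tyk2 and Stat3 lie right of the other 5 genes on both scales.

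The share of intron-keeping transcripts was also highest in replicate 1. Of the 9 genes, 5 have annotated retained-intron transcripts. Their summed share was 20.6%, 16.4% and 15.2% for Stat2 in replicates 1, 2 and 3. It was 4.9%, 0.88% and 2.61% for Tyk2 and 4.69%, 0.62% and 2.93% for Ifnar1. Stat3 (1.96% ± 0.781) and Ifngr1 (1.04% ± 0.725; SD, n = 3 each) had less. Replicate 1 was the highest library in 5 of these 5 genes, against 64.2% of 5727 coding genes with such transcripts, whose medians were 2.96%, 0.69% and 1.68%. RNAs known to reside in the nucleus also differed between libraries. In replicates 1, 2 and 3, Malat1 had 612, 156 and 637 TPM and Neat1 had 24.8, 12.7 and 52.4 TPM. Xist had 13.4, 0.66 and 3.42 TPM. All 3 RNAs were lowest in replicate 2, but Malat1 and Neat1 were highest in replicate 3 and Xist in replicate 1. The sex of the animals was not recorded, and its part in the level of Xist was not tested. The part of nuclear RNA in the intron-keeping shares was not tested.

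**Figure D5:**
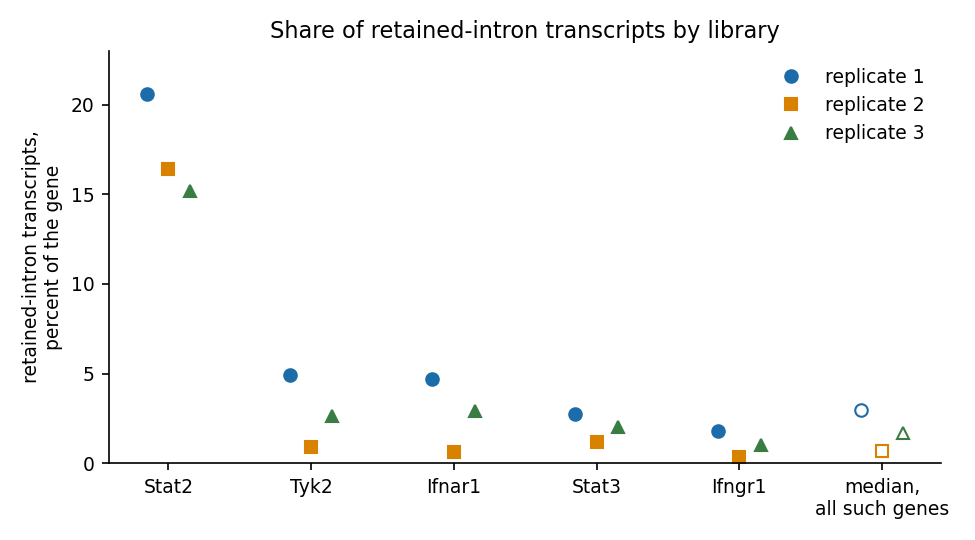
Percent of the gene's abundance held by retained-intron transcripts, by library, for the 5 of 9 genes that have them, with the median of all 5727 such coding genes (open). Replicate 1 is the highest library for each of the 5 genes and for the median.

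The 2 quantifications placed the 9 genes alike once their scales were set equal. The median log2 ratio of the second to the first over 8717 genes was -1.01 ± 0.16 (SD, n = 3). Relative to that median, 0 of 9 genes lay 2-fold or more to one side in all libraries, against 1.26% of genes. At 1.5-fold 0 of 9 did so, against 184 of 8717 genes. With so few genes called, these counts do not set the 9 apart from other genes. Ifngr2 was farthest from it, at 0.36 ± 0.08 log2 units above (SD, n = 3), and Jak1 nearest at 0.00 ± 0.01. In the second quantification Stat2 stood at 67.3 ± 20.0 TPM, Ifnar2 at 32.5 ± 3.15 TPM and Tyk2 at 10.8 ± 2.58 TPM, against 134 ± 40, 63.7 ± 4.89 and 22.9 ± 5.89 TPM in the first (SD, n = 3 each).

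The other members of the kinase and STAT families were lower, apart from Stat6. Of 5 such genes, 4 reached 1 TPM in every library, and 4 of 5 differed between libraries in the edgeR test, against 71.1% of all genes tested. Stat6, which carries signals of interleukin 4, stood at 35.9 ± 3.71 TPM, Stat5b at 9.36 ± 1.11 TPM and Jak3 at 6.52 ± 0.59 TPM. Stat4 was lowest at 0.523 ± 0.0503 TPM (SD, n = 3 each). The 4 genes of ISGF3 and interferon-induced regulators all reached 1 TPM and all differed in that test, as did 71.1% of all genes tested. Irf7, which drives type I interferon genes, led with 729 ± 182 TPM. Irf1 (61.9 ± 18.8 TPM) and Irf8 (52.4 ± 4.27 TPM) followed, and Irf9, the DNA-binding partner of STAT2, was lowest at 24.3 ± 2.38 TPM (SD, n = 3 each). Irf9 was thus below Stat2 in every library, with 26.9, 23.6 and 22.3 TPM.

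The interferon genes listed were near 0 at the moment sampled. They included Ifnl2 and Ifnl3, whose products bind the interferon lambda receptor, and of the Ifna genes only Ifna1, Ifna2, Ifna4 and Ifna5. Of 10 interferon genes, 0 reached 1 TPM in every library and 7 had 0 counts in all 3. A count of 0 allows up to 0.0599, 0.0374 and 0.0361 TPM in replicates 1, 2 and 3 for an effective length of 1000 nt. Ifnb1 was highest, with 3.02, 0.78 and 0.84 TPM from 78, 33 and 37 expected counts, and it was high in replicate 1. Ifng rested on 10 counts in replicate 3 and Ifnk on 1 count in replicate 1. Ifnb1, the 1 ligand with enough counts to be tested, differed between libraries in the edgeR test, as 71.1% of genes did.

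Most inhibitors of the pathway were present. Of 15 inhibitors, 13 reached 1 TPM in every library and 9 of 15 differed in the edgeR test (71.1% of all genes tested did). The phosphatase genes Ptpn6 (117 ± 21.9 TPM) and Ptprc (102 ± 25.2 TPM) and Usp18 (104 ± 47.5 TPM), whose product blocks JAK1 at IFNAR2, were the highest. Socs2 was lowest at 0.23 ± 0.0173 TPM (SD, n = 3 each). Usp18 had 159, 73.2 and 80.5 TPM in replicates 1, 2 and 3, so that replicate 1 stood apart. Of 13 other cytokine receptor chains, 10 reached 1 TPM and 10 of 11 tested differed, against the same 71.1%. Il2rg (127 ± 38.8 TPM), Il10rb and Il4ra (42.2 ± 12.8 TPM) led, and Ifnlr1, the private chain of the interferon lambda receptor, was lowest with 0, 2 and 1 counts.

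The target genes of the pathway were abundant and were highest in the same library as Stat2. Of 17 interferon-stimulated genes, 17 reached 1 TPM in every library, against 41.3% of coding genes, and 17 differed in the edgeR test, against 71.1% of genes tested. Ifit2 (936 ± 284 TPM), Rsad2 (824 ± 373 TPM) and Ifit3 (641 ± 145 TPM) led, and Ciita was lowest at 1.51 ± 0.319 TPM (SD, n = 3 each). Their sum was 6827, 3199 and 4402 TPM in replicates 1, 2 and 3. In TMM-scaled TPM 17 of 17 were highest in replicate 1, and the share of all genes highest there is not given here. Of the 17, 11 were also at least 1.5-fold above their lowest library, against 9.51% of genes tested that met both conditions. Of the 9 genes, Stat2, Jak2 and Tyk2 were highest in replicate 1 on that scale, Ifngr2 in replicate 2, and the other 5 in replicate 3.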

How the data were processed

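The 9 genes and the lists of related genes were chosen with earlier results of these data known. The authors deposited, per library, a gene table with expected counts (estimated reads) and TPM, a transcript table with TPM and the percent of the gene per transcript, and a second transcript table with estimated counts and TPM. The layouts are those of RSEM and kallisto, per the file headers. Text deposited beside the tables names the build mm10 and GENCODE M21. Which programs and versions were run, and whether strand was used, is not given in the sources used here. As deposited, transcript tables also hold bounds of an interval of unstated level, which were not used.

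Symbols were taken from the second tables and levels by gene identifier. Second tables were summed per gene. Expected counts were rounded and tested with edgeR 4.0.16 in R 4.3.3 (TMM, filterByExpr, likelihood ratio test with dispersion 0, Benjamini-Hochberg over 12372 genes), which was also tested on simulated data. Other steps used Python 3.11.15, numpy 2.4.6, pandas 2.3.3, scipy 1.17.1 and matplotlib 3.10.9, with a pseudocount of 1 on the log2 scale except in pair ratios and ratios between quantifications. SDs measure the spread between libraries of 1 donor identifier, whether of 1 animal or of several, part of which may be technical. The edgeR p-values set differences between libraries against counting noise only, and do not measure that spread. The sign-flip p-values rest on 3 libraries and cannot go below 0.25. Limits from 0 counts cover counting error only. Alternatives were DESeq2 1.42.0 size factors, other filters, thresholds, scalings and pseudocounts, the second quantification, and leaving out each library. Genes named are all 9, 3 leading genes and the lowest of each list, transcripts at a mean share of 10% or more, and the 3 genes nearest to the most and least variable member, of which 1 is not reported here. Minor transcripts of Ifnar1, Ifnar2, Ifngr2 and Stat3, Stat5a for its overlap, and other library values were added after their values were seen. Coordinates are 1-based.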

Additional observations from a re-analysis of the deposited data

How the results depend on the processing

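Directions of all 5 pair ratios were the same under every alternative run, as were the calls of 9 genes at 1 TPM. The count of neighbouring pairs beyond their spread was 3, and it was 5 in the second quantification and ranged from 3 to 6 when a library was left out. The median SD of the 9 genes was 0.27 in the second quantification (all genes, 0.15) and 0.10 to 0.23 with a library left out, the highest without replicate 3 (all genes, 0.12). The Ifnar2-203 share was 73.3% in the second quantification. Genes 2-fold apart between quantifications numbered 110, and 184 at 1.5-fold and 527 without rescaling. Counts called against counting noise ranged from 6340 to 6822 with a library left out, and were 8748 with DESeq2 size factors, 10759 without the filter and 7707 at 0.01. In each case the count of the 9 called was 6 to 9. Mean TPM of all 9 genes moved beyond 1 SD over coding genes alone and in the second quantification. Coding genes held 32.7%, 27.4% and 27.8% of TPM in replicates 1, 2 and 3, and were rescaled there to the full total. The second quantification had a median log2 ratio of -1.01 to the first over 8717 genes. The cause of the other changes was not tested. Short transcripts such as Ifngr2-202 are limited by their counts. No paired analysis was possible because there is 1 group.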
